A study of Homo sapiens with 8 samples.

Results

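The human histone genes were examined as 1 group of 80 genes among the 59385 rows of the count table. Members were taken by symbol alone. There were 65 replication-type genes, which are the C-numbered H2A, H2B, H3 and H4 genes and H1-1 to H1-5, and 15 variant genes, among them H2AX, H2AZ1, H2AZ2, H2AJ, H3-3A, H3-3B, MACROH2A1, MACROH2A2 and H1-10. The cells were IHCF, an immortalized line of human cardiac fibroblasts, infected with a lentivirus that expressed a short hairpin RNA (shRNA). The 4 groups were polysomal RNA of cells with EIF4G2 shRNA, polysomal RNA of cells with scramble shRNA, total RNA of cells with EIF4G2 shRNA and total RNA of cells with scramble shRNA, with 2 libraries in each. EIF4G2 (DAP5) resembles the scaffold protein eIF4G and acts in translation initiation. Cells of every group had been deprived of serum for at least 6 h and then given TGF-beta, a growth factor that activates fibroblasts, for 24 h, so no group without TGF-beta was compared. One immortalized line and, as far as the labels say, 1 hairpin against EIF4G2 stand behind every comparison. The labels call the libraries biological replicates without naming separate cultures, and the p-values below reflect library-to-library spread that may be technical. The study's description speaks of triplicates, and 2 libraries per group were analysed here.

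Histone messenger RNAs are of 2 kinds. Replication-type histone genes lie in clusters, have no introns and are used mainly in S phase, and their messages normally end just past a stem-loop rather than in a poly(A) tail. The stem-loop binding protein SLBP and the U7 small nuclear ribonucleoprotein direct that cleavage, and SLBP also serves in translation of these messages. Variant histone genes are used throughout the cell cycle, and their messages carry poly(A) tails. H2AX stands between both kinds, since its message is known in a short form that ends at a stem-loop and in a longer polyadenylated form. All libraries were made from RNA enriched for poly(A), a step that captures messages ending at the stem-loop poorly. How much of the RNA counted for a replication-type gene carried a tail was not measured.

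The libraries held between 18043714 and 24590030 counts. EIF4G2 itself had 244 and 335 CPM (counts scaled to 1000000 per library) in polysomal RNA of knockdown cells, against 875 and 877 CPM with scramble shRNA, and 293 and 327 CPM in total RNA of knockdown cells, against 794 and 785 CPM with scramble shRNA. The hairpin labels therefore matched the level of the targeted gene in all 8 libraries. Fibroblast markers summed to between 5468 and 6929 CPM in every library, and most of that sum was VIM, with a mean of 3146 CPM, and COL1A1, with 2540 CPM. THY1 had a mean of 247 CPM, COL1A2 of 173 CPM, PDGFRB of 26.9 CPM and COL3A1 of 26.8 CPM. The remaining fibroblast markers were near 0, with means of 0.163 CPM for DCN, 1.34 CPM for PDGFRA, 3.29 CPM for POSTN and 5.49 CPM for LUM. Cardiomyocyte markers summed to at most 1.15 CPM, with MYH6 and MYH7 at 0, and leukocyte markers to at most 1.54 CPM, with CD3E at 0. The endothelial list lay between 8.18 and 11.3 CPM, the mural list between 22.9 and 249 CPM with ABCC9 at 0. The epithelial list, nearly all of it KRT8 and KRT18, lay between 2238 and 2268 CPM in polysomal RNA of knockdown cells, against 3128 and 3200 CPM with scramble shRNA, without overlap, and between 1165 and 1423 CPM in total RNA of knockdown cells, against 1364 and 1392 CPM with scramble shRNA. Its part in the results below was not tested. These are bulk libraries, in which fewer cells of a type and less RNA per cell cannot be told apart. The spread between libraries was larger in polysomal RNA, with a biological coefficient of variation of 0.265, than in total RNA, with 0.113.

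The annotated ends of the genes were read first. All 80 members matched a gene of GENCODE release 29 on GRCh38, 5 of them through older symbols. The 200 bases after the stop codon of each annotated coding transcript were searched on the sense strand for the histone stem-loop, spelled GGCNCTTTTNAGNGCC, a motif of 16 bases that has no overlap with another motif searched. It was present in 27 replication-type genes and in 2 variants, H2AX and H4-16. H4-16 is a histone H4 gene outside the large clusters and was counted as a variant by its symbol alone. The same search found it in 32 of 19558 coding genes, or 0.1636%, and the 3 that are not members were H2AC25, H2BC26 and H3-4, which are histone genes as well. Among the 28 replication-type genes with at least 60 annotated bases after the stop codon, 26 held the motif, whereas 34 replication-type genes were annotated with no base after the stop codon. The absence of a match in those 34 says only that these letters are not in the annotated window. The stem-loops lay between 22 and 67 bases after the stop codon and took 6 forms, of which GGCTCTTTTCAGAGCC was shared by 15 genes and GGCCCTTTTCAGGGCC by 5 genes. The following stem-loops belong to the 2 variants with the motif and to replication-type genes named below. The 16 bases of the motif are in capitals, with 5 flanking bases on each side, written 5′ to 3′ as DNA on the gene's own strand.
H2AX: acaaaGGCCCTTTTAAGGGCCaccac
H4-16: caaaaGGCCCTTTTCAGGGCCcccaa
H4C9: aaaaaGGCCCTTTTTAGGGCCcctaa
H2AC6: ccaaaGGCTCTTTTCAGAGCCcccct
H2AC8: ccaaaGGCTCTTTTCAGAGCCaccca
H2AC11: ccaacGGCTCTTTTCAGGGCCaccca
H2BC5: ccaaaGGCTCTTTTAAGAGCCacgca
The H2AX motif lies at chr11:119094898-119094913 on the minus strand, 49 bases after the stop codon. It was the only one with these exact letters among the 29 members with the motif, and the form of H2AC11 was likewise found in no other member. The motif of H4C9 lies at chr6:27139654-27139669 on the plus strand, and that of H2AC6 at chr6:26124669-26124684 on the plus strand. The motifs of H2AX, H4C9 and H2AC6 are all in the 3′ untranslated region.

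Long annotated transcripts ran past the stem-loop in many of these genes. In 19 of the 27 replication-type genes with the motif, an annotated coding transcript continued for more than 100 bases beyond it. H2AX, a gene of 1 exon at chr11:119093854-119095467 on the minus strand, had 1109 annotated bases after its stop codon, and H2AC6 had 1173 and H2AC11 had 1827. A poly(A) signal, spelled AATAAA or ATTAAA, was searched on the sense strand. The search covered the last 40 annotated bases, as far as these lie after the stop codon. The signal was found in 21 of 65 replication-type genes, 19 of which also held the stem-loop. It was also found in 10 of 15 variants and in 80.6% of all coding genes searched. The 34 replication-type genes annotated with no base after the stop codon could hold no match, so the 21 of 65 cannot be set beside that percentage. H2AX was not among the variants with the signal, although its annotated end lies far beyond the stem-loop.

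Counts were found for most histone genes, but few were abundant. The filter for testable genes kept 51 members, 39 of the 65 replication-type genes and 12 of the 15 variants. A further 18 replication-type genes had some counts and did not pass. Another 11 members had no count in any library: the replication-type genes H1-1, H2AC1, H2AC7, H2AC15, H2BC1, H3C4, H3C14 and H3C15, and the linker variants H1-6, H1-7 and H1-8. A mean of at least 1 CPM was reached by 20 replication-type genes and 10 variants. Of the 11 members without counts, H3C4, H3C14 and H3C15 shared all of their 50-base windows with another annotated gene, and H2AC7 shared 98.0%. H3C4 and H2AC7 share windows with an annotated gene whose exons overlap theirs on the same strand. How reads with several matches, or reads in overlapping genes, were counted is not given in the sources used here. A 0 in these genes is therefore uncertain. In all, 15 replication-type genes shared more than 50% of their windows with another gene, among them H2BC12 with 74.1%.

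Variant genes held nearly all histone counts. Replication-type genes made up between 4.48% and 4.94% of the histone counts in each of the 8 libraries. As a share of all counts, the 65 replication-type genes took 0.0281% and 0.0273% in polysomal RNA of knockdown cells, against 0.0291% and 0.0248% with scramble shRNA. In total RNA they took 0.0174% and 0.0151% in knockdown cells, against 0.0155% and 0.0153% with scramble shRNA. The knockdown and scramble libraries overlapped in polysomal RNA, and in total RNA 1 of the 2 knockdown libraries lay above both scramble libraries and the other below both. The 15 variants took between 0.304% and 0.600% of all counts. Because poly(A) enrichment acts before counting, these shares describe captured RNA and not the histone messages of the cell.

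Among the variants, H2AZ1 was the most abundant per length. H2AZ1 encodes H2A.Z, an H2A variant found at promoters, and had 2925 and 3275 CPM in polysomal RNA of knockdown cells, against 3108 and 2303 CPM with scramble shRNA. In total RNA it had 562 and 420 CPM in knockdown cells, against 386 and 367 CPM with scramble shRNA. H2AZ2, the second H2A.Z gene, had 539 and 648 CPM in polysomal RNA of knockdown cells, against 694 and 629 CPM with scramble shRNA, and 221 and 187 CPM in total RNA of knockdown cells, against 179 and 179 CPM with scramble shRNA. H3-3A and H3-3B encode the same protein, H3.3, which is placed into chromatin also outside S phase. H3-3B had 1635 and 1667 CPM in polysomal RNA of knockdown cells, against 1673 and 1688 CPM with scramble shRNA, and 552 and 427 CPM in total RNA of knockdown cells, against 448 and 460 CPM with scramble shRNA. H3-3A had 1332 and 1332 CPM in polysomal RNA of knockdown cells, against 1252 and 1108 CPM with scramble shRNA, and 188 and 167 CPM in total RNA of knockdown cells, against 158 and 162 CPM with scramble shRNA. All 4 genes were far higher in polysomal than in total RNA, with no overlap between the fractions in either kind of cell.

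H2AX, the H2A variant that is phosphorylated around DNA double-strand breaks, was higher in every knockdown library than in every scramble library of the same fraction. It had 621 and 686 CPM in polysomal RNA of knockdown cells, against 423 and 418 CPM with scramble shRNA. In total RNA it had 381 and 332 CPM in knockdown cells, against 160 and 165 CPM with scramble shRNA. Divided by the length of the longest coding transcript, H2AX stood at 236 and 206 CPM per kb in total RNA of knockdown cells, against 99.4 and 102 CPM per kb with scramble shRNA. In scramble cells that level lay below those of H2AZ1 (394 and 375 CPM per kb), H3-3B (166 and 170) and H1-10 (121 and 120), without overlap. In knockdown cells it lay below H2AZ1 (574 and 429 CPM per kb) and above H3-3B (204 and 158 CPM per kb), again without overlap. Of the counts of all H2A genes other than macroH2A, H2AX held 14.7% and 14.3% in polysomal RNA of knockdown cells, against 9.51% and 11.9% with scramble shRNA. In total RNA it held 30.9% and 33.5% in knockdown cells, against 20.6% and 21.5% with scramble shRNA.

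**Figure D1:**
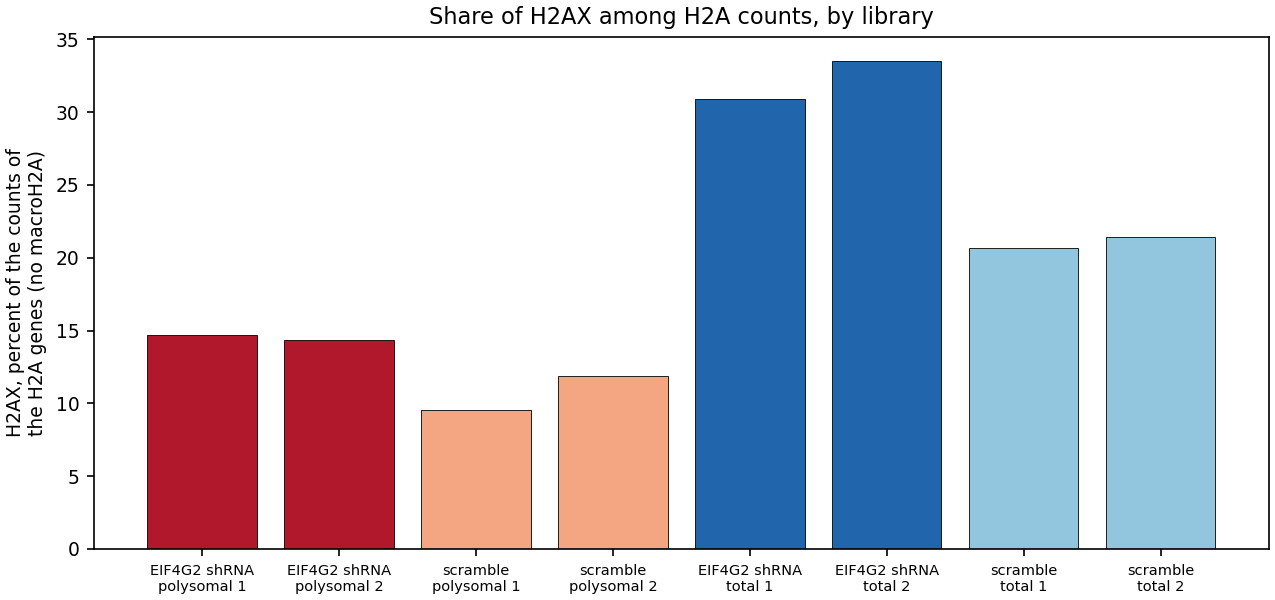
Percent of the counts of all H2A genes (replication-type H2A genes, H2AX, H2AZ1, H2AZ2 and H2AJ, without macroH2A) that fell on H2AX, with 1 bar for each of the 8 libraries. The knockdown bars reach 14.3% or more in polysomal RNA and 30.9% or more in total RNA, and each lies above both scramble bars of its fraction.

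H1-10, a linker histone variant, had 201 and 338 CPM in polysomal RNA of knockdown cells, against 321 and 504 CPM with scramble shRNA, and 202 and 178 CPM in total RNA of knockdown cells, against 182 and 181 CPM with scramble shRNA. Its 2 polysomal libraries of each hairpin lay far apart.

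MACROH2A1 and MACROH2A2 encode H2A variants with a large additional domain. MACROH2A1 had 244 and 241 CPM in polysomal RNA of knockdown cells, against 229 and 278 CPM with scramble shRNA, and 122 and 113 CPM in total RNA of knockdown cells, against 111 and 108 CPM with scramble shRNA. MACROH2A2 had 43.8 and 35.1 CPM in polysomal RNA of knockdown cells, against 36.1 and 42.9 CPM with scramble shRNA, and 52.3 and 38.8 CPM in total RNA of knockdown cells, against 40.3 and 38.6 CPM with scramble shRNA. MACROH2A2 overlapped between all 4 groups. H2AJ, an H2A variant gene near H4-16 on chromosome 12, had 68.4 and 105 CPM in polysomal RNA of knockdown cells, against 146 and 103 CPM with scramble shRNA, and 39.5 and 27.6 CPM in total RNA of knockdown cells, against 26.8 and 30.2 CPM with scramble shRNA. The other 2 variants tested, H3-5 and H4-16, stayed below 2 CPM in every library. Exons on the opposite strand overlap H2AZ1, H3-3A, H3-3B, H1-10, MACROH2A1 and MACROH2A2 in the annotation, and the strand setting of the counting is not given in the sources used here.

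**Figure D2:**
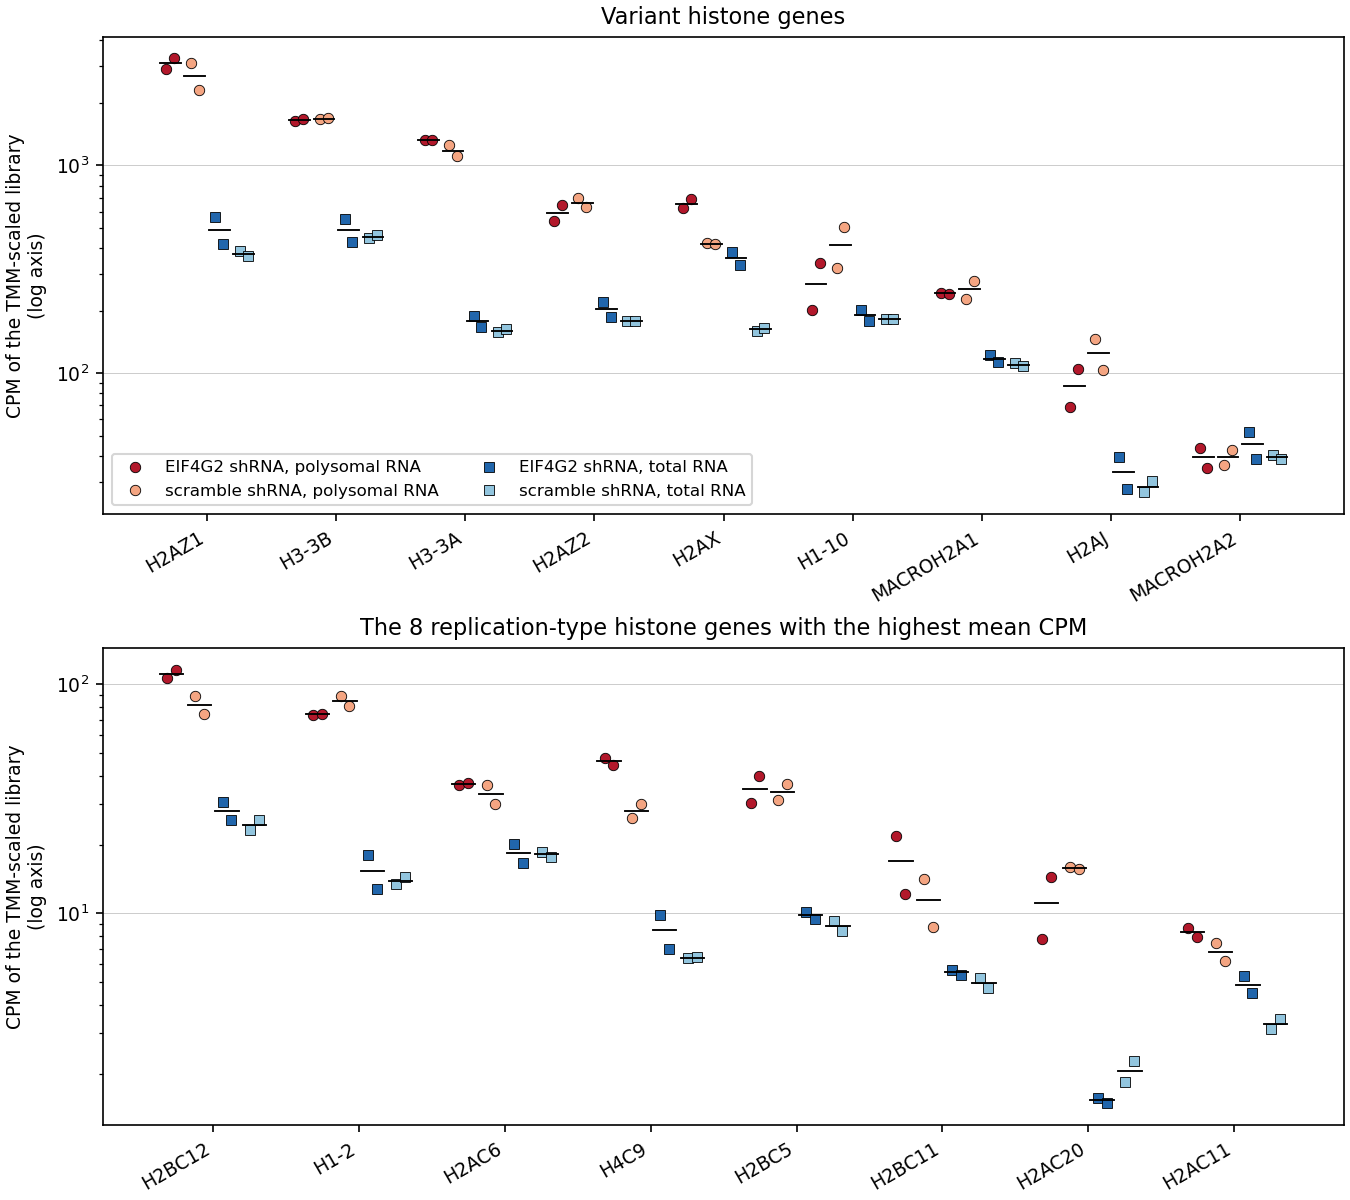
CPM of the TMM-scaled library (log axis) for 9 of the 10 variants with a mean of at least 1 CPM (top) and the 8 most abundant replication-type genes (bottom), with 1 point for each library and a bar at the mean of each group of 2. The polysomal points of H3-3A lie at 1108 CPM or more and its total points at 188 CPM or less, while the points of MACROH2A2 overlap between the groups.

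Among the replication-type genes, 8 held between 76.0% and 83.1% of the class's counts in every library. H2BC12, which encodes a histone H2B, had 107 and 116 CPM in polysomal RNA of knockdown cells, against 89.1 and 74.0 CPM with scramble shRNA, and 30.6 and 25.7 CPM in total RNA of knockdown cells, against 23.1 and 25.6 CPM with scramble shRNA. H1-2, a linker histone gene, had 73.8 and 74.1 CPM in polysomal RNA of knockdown cells, against 89.3 and 80.6 CPM with scramble shRNA, and 17.97 and 12.8 CPM in total RNA of knockdown cells, against 13.4 and 14.4 CPM with scramble shRNA. Both genes are annotated with no base after the stop codon in GENCODE release 29. H4C9, an H4 gene whose stem-loop is printed above, had 47.6 and 44.6 CPM in polysomal RNA of knockdown cells, against 26.1 and 30.1 CPM with scramble shRNA, and 9.89 and 7.02 CPM in total RNA of knockdown cells, against 6.38 and 6.43 CPM with scramble shRNA. H2AC6, an H2A gene, had 36.3 and 37.0 CPM in polysomal RNA of knockdown cells, against 36.3 and 30.1 CPM with scramble shRNA, and 20.1 and 16.7 CPM in total RNA of knockdown cells, against 18.6 and 17.6 CPM with scramble shRNA. H2BC5, an H2B gene, had 30.3 and 39.8 CPM in polysomal RNA of knockdown cells, against 31.2 and 36.7 CPM with scramble shRNA, and 10.1 and 9.49 CPM in total RNA of knockdown cells, against 9.28 and 8.37 CPM with scramble shRNA. The hairpins did not overlap for H4C9 or H2BC12 in either fraction, with knockdown higher, though for H2BC12 in total RNA the gap was narrow. H1-2 in polysomal RNA was lower in knockdown cells without overlap. H2BC5 in total RNA and H2AC6 in polysomal RNA were higher without overlap, for H2AC6 by a narrow gap. The hairpins overlapped for H1-2 and H2AC6 in total RNA and for H2BC5 in polysomal RNA. How many of all genes separate in this way was not counted.

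The 3 remaining genes of those 8 were lower still. H2BC11, another H2B gene, ranged from 4.71 CPM in a total library to 21.8 CPM in a polysomal library, H2AC20, an H2A gene, ranged from 1.48 to 15.99 CPM, and H2AC11, also an H2A gene, ranged from 3.14 to 8.64 CPM. On this TMM scale each was higher in every polysomal library than in every total library. Scaled by library totals alone, H2AC11 had a log2 fold change of polysomal over total RNA of −0.29 in knockdown and 0.05 in scramble cells. The 19 replication-type genes with a transcript annotated more than 100 bases past the stem-loop had a median level of 1.81 CPM over the 8 libraries. That median was 0.525 CPM in the 8 genes with the stem-loop but no such transcript and 0.314 CPM in the 38 genes with no stem-loop in the annotated sequence. The annotation decides which reads can be counted, so these medians describe the gene models as well as the RNA. The genes with the extension took 32.6% and 30.8% of the replication-type counts in polysomal RNA of knockdown cells, against 29.3% and 30.2% with scramble shRNA. In total RNA they took 41.3% and 40.7% in knockdown cells, against 43.9% and 40.7% with scramble shRNA.

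**Figure D3:**
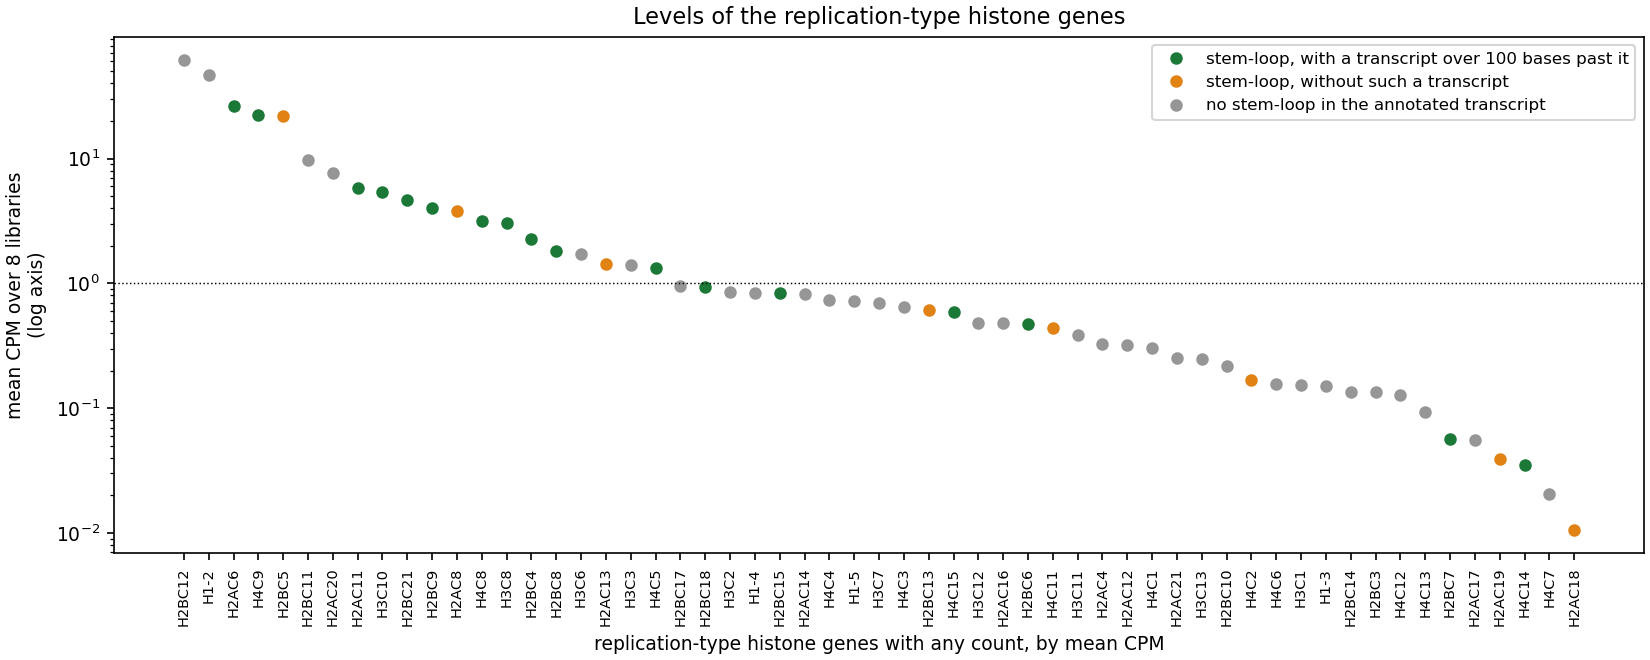
Mean CPM over the 8 libraries (log axis) of each replication-type gene with any count, in order of level and coloured by the annotated end of the gene. The dotted line marks 1 CPM, which 20 genes reached, and H2BC12 and H1-2, the 2 highest, have no annotated stem-loop.

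In total RNA, H2AX had the largest fold change of knockdown over scramble among the 12 variants tested. Its log2 fold change was 1.13 ± 0.15 (SE), or 2.20-fold, with both knockdown libraries above both scramble libraries. By edgeR's quasi-likelihood test with Benjamini-Hochberg adjustment this gave an adjusted p of 0.0504, just short of the threshold of 0.05. EIF4G2 had the same adjusted p, and edgeR called none of the 51 histone genes and none of the 16228 genes tested (0%). At an unadjusted p under 0.05 there was 1 histone gene, H2AX, and 598 genes in all. DESeq2 called H2AX and no other histone gene, with an adjusted p of 6.71e-11, among 26 calls in 8362 genes with an adjusted p (0.311%). The edgeR call depended on the setting: H2AX had an adjusted p of 2.05e-06 with no filter on low counts, 0.0424 with a stricter filter and 0.0349 when total RNA alone was fitted, and 0.0664 with the replicate number as a block. Without 1 library its log2 fold change stayed between 1.03 and 1.23, with an adjusted p between 0.0853 and 1.

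Other histone genes differed less in total RNA. H2AZ1 had a log2 fold change of 0.38 ± 0.22, H4C9 of 0.40 ± 0.21, H2AC11 of 0.57 ± 0.27 and H2BC12 of 0.21 ± 0.16, while H2AC20 had −0.43 ± 0.34. H3-3A (0.15 ± 0.16), H3-3B (0.11 ± 0.18), H2AZ2 (0.19 ± 0.16) and MACROH2A1 (0.10 ± 0.15) each lay within about 1 SE of 0. None of these passed the test. The median log2 fold change was 0.15 over the 39 replication-type genes and 0.20 over the 12 variants, against 0.02 over all genes tested. A total of 23 replication-type genes and 11 variants were above 0, beside 8575 of all 16228 genes tested.

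In polysomal RNA, H2AX again stood highest among the variants with a mean of at least 1 CPM, with a log2 fold change of 0.64 ± 0.15, or 1.55-fold. Its adjusted p was 0.172 by edgeR and 0.00447 by DESeq2, which again called H2AX and no other histone gene. edgeR called none of the 51 histone genes, beside 2 of all 16228 genes (0.0123%), 1 of which was EIF4G2, and DESeq2 called 221 of 15598 genes (1.42%). Unadjusted p-values under 0.05 were found for 7 histone genes and for 2152 of all genes. Among these were H2AX, H4C9 (0.72 ± 0.20, adjusted p = 0.198 by edgeR), H2BC12 (0.45 ± 0.16), H3C8 (0.83 ± 0.37) and H3C12 (2.14 ± 0.92), all with positive values, and the linker gene H1-10 (−0.62 ± 0.26). H3C8 and H3C12 are H3 genes named for this p after their values were seen. H1-10 was called lower by edgeR with no filter on low counts, with an adjusted p of 0.0214, although 1 knockdown polysomal library (338 CPM) lay above 1 scramble library (321 CPM).

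No common direction was seen in the polysomal comparison. The median log2 fold change was −0.19 over the replication-type genes and −0.04 over the variants, against −0.01 over all genes tested. A total of 17 replication-type genes and 5 variants were above 0, beside 7441 of all 16228 genes tested. H2AZ1 had 0.20 ± 0.22, H3-3A 0.18 ± 0.16 and H3-3B −0.03 ± 0.18, and H2AJ had −0.53 ± 0.24 and H2AC20 −0.52 ± 0.30.

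**Figure D4:**
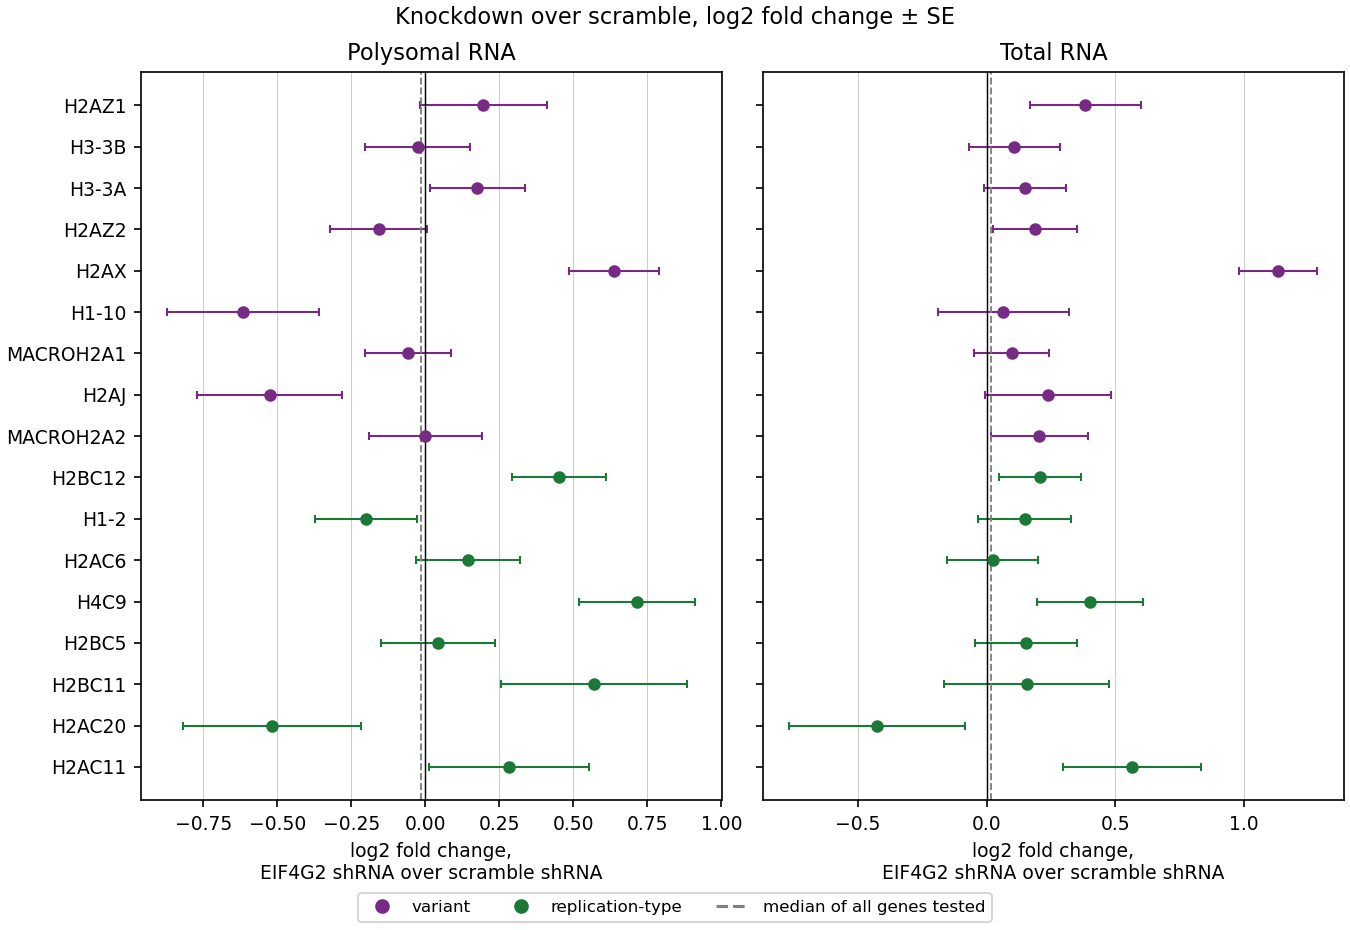
Log2 fold change of EIF4G2 shRNA over scramble shRNA with its SE for 17 histone genes, in polysomal RNA (left) and total RNA (right). The dashed line is the median of all genes tested. H2AX is the point farthest to the right in total RNA, at 1.13, and lies at 0.64 in polysomal RNA.

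The change of the polysomal to total ratio was tested as the interaction of hairpin and fraction. For H2AX the log2 change of the ratio in knockdown cells was −0.50 ± 0.21 (adjusted p = 0.776 by edgeR). H2AJ had −0.76 ± 0.35 and H1-10 −0.68 ± 0.36, while H4C9 had 0.31 ± 0.29 and H2BC12 0.24 ± 0.23. edgeR called none of the 51 histone genes and none of all 16228 genes (0%), and DESeq2 called none of the histone genes among 4 in all (0.0246%). An unadjusted p under 0.05 was found for 3 histone genes, H2AX, H2AC14 and H2AC16, and for 1018 genes in all. Thus the difference between the H2AX values of 1.13 in total and 0.64 in polysomal RNA did not pass the test.

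Polysomal and total RNA differed far more than the hairpins did. In knockdown cells, edgeR called 31 of the 51 histone genes, 30 of them higher in polysomal RNA, where 63% of all genes were called, 28.9% higher and 34.1% lower. In scramble cells it called 34, 33 of them higher, where 63.4% of all genes were called, 29.7% higher and 33.7% lower. DESeq2 called 30 histone genes in knockdown cells (62.4% of all genes) and 34 in scramble cells (62.8% of all genes). The median log2 fold change in knockdown cells was 1.83 over the replication-type genes and 1.03 over the variants, against −0.16 over all genes tested. In scramble cells it was 1.89 over the replication-type genes and 1.59 over the variants, against −0.17 over all genes tested. The same 25 genes were called in both kinds of cell, 6 in knockdown cells alone and 9 in scramble cells alone, and no difference between the cells was called in the interaction test. In scramble cells the count of 34 called histone genes dropped to 22 without the first and to 19 without the second scramble total library.

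These values rest on the scaling. A scaling by library totals, without TMM factors, moved the median of all genes by −1.05 in knockdown cells and −0.995 in scramble cells. It left 13 histone genes called higher and 3 lower in knockdown cells, and 14 higher and 2 lower in scramble cells. Relative to the median of all genes, which was then −1.22 in knockdown and −1.16 in scramble cells, the replication-type genes still had higher medians (0.77 in knockdown cells and 0.93 in scramble cells), and so had the variants (−0.03 in knockdown cells and 0.60 in scramble cells).

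The H3.3 and H2A.Z genes were higher in polysomal RNA in both kinds of cell. In knockdown cells the log2 fold change of polysomal over total RNA was 2.91 ± 0.17 for H3-3A, 2.66 ± 0.23 for H2AZ1, 1.75 ± 0.18 for H3-3B and 1.54 ± 0.17 for H2AZ2. In scramble cells it was 2.88 ± 0.17 for H3-3A, 2.85 ± 0.23 for H2AZ1, 1.89 ± 0.18 for H3-3B and 1.89 ± 0.17 for H2AZ2. All of these were called by both edgeR and DESeq2. H2AJ had 1.36 ± 0.25 in knockdown and 2.13 ± 0.25 in scramble cells, and by library totals its call was lost in knockdown cells (0.30, edgeR adjusted p = 0.293). MACROH2A1 had 1.05 ± 0.15 in knockdown and 1.20 ± 0.15 in scramble cells, and library totals ended both calls, with −0.01 in knockdown cells and 0.20 in scramble cells (edgeR adjusted p = 0.952 in knockdown and 0.196 in scramble cells). H2AX had 0.87 ± 0.15 in knockdown cells, where it was −0.18 by library totals, and 1.37 ± 0.15 in scramble cells. H1-10 was called in scramble cells alone, at 1.18 ± 0.26, and had 0.50 ± 0.25 in knockdown cells. By library totals it was called lower in knockdown cells (−0.57, edgeR adjusted p = 0.0467) and not called in scramble cells (0.17, edgeR adjusted p = 0.513). Without the first knockdown polysomal library it was called higher in knockdown cells (0.76, edgeR adjusted p = 0.0196), and without the second it had −0.02 there.

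MACROH2A2 had −0.21 ± 0.19 in knockdown and 0.00 ± 0.19 in scramble cells and was not called. Under library totals it was called lower in both, at −1.25 in knockdown and −1.004 in scramble cells.

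The replication-type genes that were called were all higher in polysomal RNA. In knockdown cells H2BC12 had 1.99 ± 0.16, H1-2 had 2.26 ± 0.18, H4C9 had 2.45 ± 0.21, H2BC5 had 1.83 ± 0.20 and H2AC20 had 2.85 ± 0.34. In scramble cells H2BC12 had 1.74 ± 0.16, H1-2 had 2.61 ± 0.19, H4C9 had 2.13 ± 0.21, H2BC5 had 1.94 ± 0.20 and H2AC20 had 2.94 ± 0.33. Lower values were found for H2AC6, with 0.99 ± 0.18 in knockdown cells and 0.87 ± 0.18 in scramble cells, which library totals turned to −0.06 in knockdown and −0.12 in scramble cells. H2AC11 had 0.76 ± 0.27 in knockdown and 1.04 ± 0.27 in scramble cells. By library totals neither call held, with −0.29 in knockdown and 0.05 in scramble cells. Its knockdown call was also lost with no filter on low counts (0.58, edgeR adjusted p = 0.192) and with only the 2 groups fitted (0.70, edgeR adjusted p = 0.0740). The same held without the first knockdown polysomal library and without any 1 of the 4 total libraries, at values between 0.62 and 0.88. Its scramble call was lost without the first scramble total library, at 0.97. H2BC11 had 1.62 ± 0.32 in knockdown and 1.21 ± 0.32 in scramble cells. By library totals neither call held, with 0.58 in knockdown and 0.22 in scramble cells, and the scramble call was lost without the first scramble polysomal library (0.73, edgeR adjusted p = 0.0934).

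Of the less abundant replication-type genes, H2AC8, an H2A gene with a short annotated end, had 3.50 ± 0.37 in knockdown and 3.71 ± 0.37 in scramble cells. H1-5, H2AC13, H2BC4, H2BC18, H3C10, H3C11, H4C8 and H4C11 were also called by edgeR in both kinds of cell, with values between 1.31 for H2BC4 and 4.30 for H3C11 in knockdown cells, and between 1.28 for H4C8 and 4.55 for H4C11 in scramble cells. Calls in knockdown cells alone were made for H1-4 (3.16), H2BC21 (1.04), H3C2 (3.07), H3C8 (1.16), H3C12 (3.27) and H4C15 (4.54). Calls in scramble cells alone were made for H2AC14 (2.36), H2BC9 (1.42), H2BC15 (2.00), H3C3 (2.55), H3C7 (3.33), H4C1 (4.86), H4C3 (2.54) and H4C5 (2.30), beside H1-10. Many of these rest on few reads: H4C15 had 45 and 2 counts in the polysomal libraries of knockdown cells, against 1 and 3 counts in the total libraries.

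Transcript length moved with the same comparison across all genes. Over the 12822 tested genes with an annotated coding transcript, Spearman's correlation of its length with the log2 fold change of polysomal over total RNA was −0.562 in knockdown cells and −0.612 in scramble cells, a description across genes that share libraries. The median was 1.92 in knockdown and 2.20 in scramble cells for transcripts of up to 1000 bases, and −1.13 in knockdown and −1.17 in scramble cells for those above 4000 bases. Between these lay transcripts above 1000 and up to 2000 bases, with 1.18 in knockdown and 1.34 in scramble cells, and those above 2000 and up to 4000 bases, with 0.07 in knockdown and 0.08 in scramble cells. Most histone genes have short annotated transcripts. Those of H2BC12, H1-2 and H2AC20 are annotated with no base after the stop codon, so their length classes may be too low. The class follows the longest coding transcript, and H2AZ2, H3-3B and H3-3A have 8, 6 and 4 annotated coding transcripts. Their classes may be too high where shorter transcripts prevail, and which transcripts were present was not tested. Set against the median of their own length class, the 18 histone genes that are the 10 variants with a mean of at least 1 CPM and the 8 most abundant replication-type genes had a median difference of 0.21 in knockdown and 0.22 in scramble cells, and 10 of the 18 lay above their class in each. H3-3B stood above its class by 1.69 in knockdown and 1.81 in scramble cells, H3-3A by 1.72 in knockdown and 1.54 in scramble cells, and H2AZ2 by 1.47 in knockdown and 1.81 in scramble cells. H2AX lay at −0.31 in knockdown and 0.03 in scramble cells, and H2BC12 at 0.07 in knockdown and −0.45 in scramble cells. MACROH2A2 stood far below its class, at −1.39 in knockdown and −1.34 in scramble cells, and H2BC11 lay at −0.29 in knockdown and −0.99 in scramble cells. The part of length in the polysomal values was not tested.

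**Figure D5:**
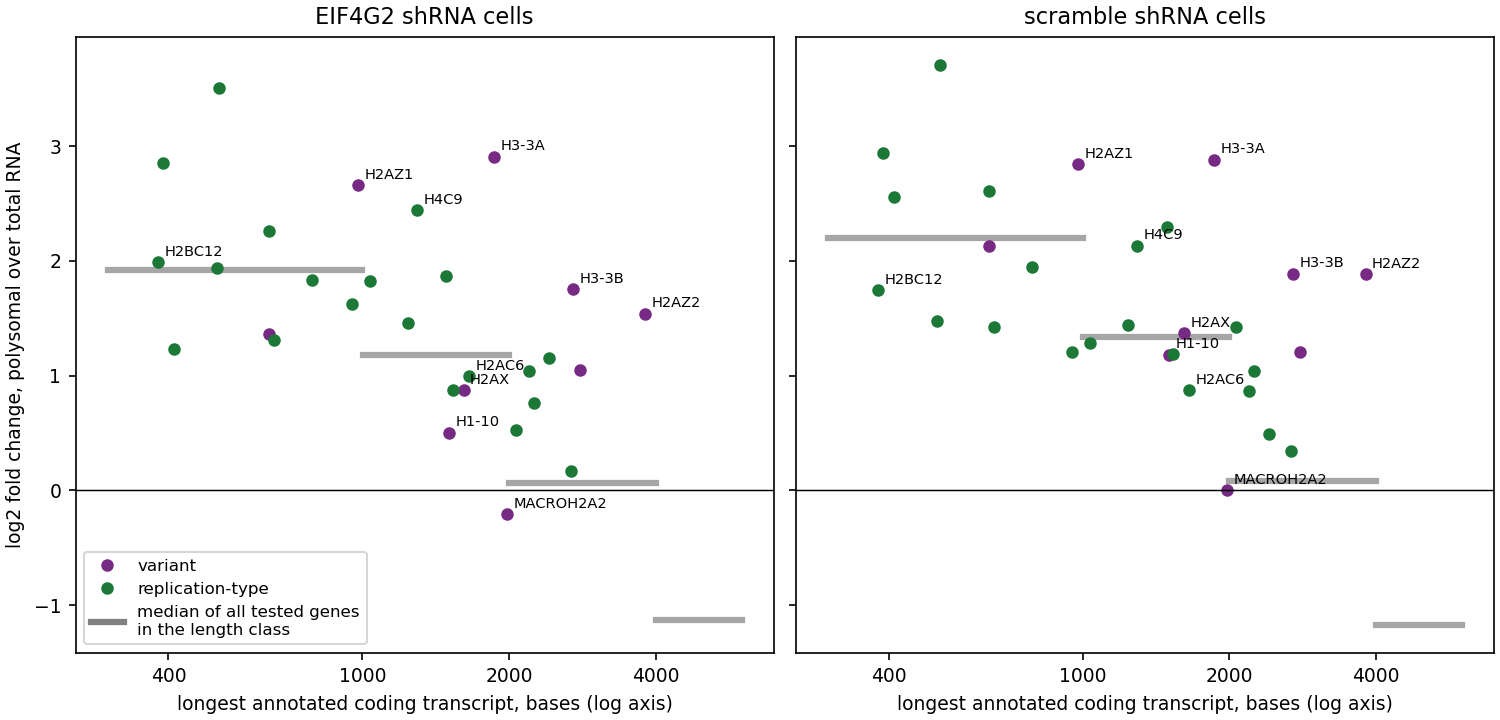
Log2 fold change of polysomal over total RNA against the length of the longest annotated coding transcript (log axis) for 29 of the 30 histone genes with a mean of at least 1 CPM, in knockdown cells (left) and scramble cells (right). Grey bars are the medians of all tested genes in 4 length classes, which fall with length; H3-3A, H3-3B and H2AZ2 lie above their bar in both.

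The genes that make, carry and read histones were followed in 4 lists. None of their members was called between the hairpins, in polysomal RNA, total RNA or the ratio, by edgeR or by DESeq2. Unadjusted edgeR p-values under 0.05 were counted in polysomal RNA, total RNA and the ratio, in this order. They were found for 3, 0 and 1 of 31 genes tested of the processing and decay list and for 6, 2 and 2 of 31 chaperones. Of 44 genes of S phase there were 10, 2 and 4, and of 26 genes of DNA break signalling 4, 2 and 0. Among all 16228 genes tested there were 2152, 598 and 1018. SLBP, singled out after its values were seen, had 229 and 240 CPM in polysomal RNA of knockdown cells, against 258 and 252 CPM with scramble shRNA. In total RNA it had 114 and 95.3 CPM in knockdown cells, against 94.1 and 101 CPM with scramble shRNA. Its log2 fold change was −0.12 ± 0.14 in polysomal and 0.11 ± 0.14 in total RNA.

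Of the 32 genes of histone mRNA 3′ processing and decay, 31 were tested, with a median log2 fold change of −0.09 in polysomal RNA and 0.00 in total RNA. The smallest p-values in polysomal RNA belonged to UPF1, an RNA helicase of mRNA decay (−0.80 ± 0.25), DHX9, an RNA helicase (−0.45 ± 0.14), and CASP8AP2, a histone gene regulator (−0.77 ± 0.33). In total RNA they belonged to LSM10, a U7 protein (0.37 ± 0.17), TUT7, a uridylyltransferase (−0.45 ± 0.21), and SNRPB, an Sm protein (0.35 ± 0.20). Between the fractions, edgeR called 10 of the 31 higher and 16 lower in knockdown cells, led by DHX9 (−2.30), UPF1 (−3.99) and LSM1 (2.04), where 28.9% of all genes were called higher and 34.1% lower. In scramble cells it called 10 higher and 14 lower, led by DHX9 (−2.05), UPF1 (−3.24) and SNRPB (2.64), where 29.7% of all genes were called higher and 33.7% lower.

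All 31 histone chaperone genes were tested. Their median was −0.17 in polysomal RNA, with the smallest p-values for UBN1 (−0.71 ± 0.19), DAXX (3.12 ± 1.03) and SET (0.45 ± 0.15), and −0.02 in total RNA, with the smallest for NAP1L4 (−1.40 ± 0.37), SET (0.47 ± 0.15) and SPTY2D1 (−0.40 ± 0.18). DAXX, a chaperone of H3.3, rested on 1 knockdown polysomal library of 10.4 CPM beside another of 0.675 CPM. The 44 genes of S phase had a median of −0.16 in polysomal RNA, with the smallest p-values for GINS3 (0.72), FEN1 (−0.50) and CLSPN (−0.62), and −0.01 in total RNA, with the smallest for GINS3 (0.72), E2F8 (−0.60) and POLA1 (−0.38). Of the 28 genes of DNA break signalling at H2AX, 26 were tested. Their median was −0.12 in polysomal RNA, with the smallest p-values for PARP1 (−0.53), LIG4 (−0.65) and BAZ1B (−0.54), and −0.18 in total RNA, with the smallest for PPP4C (0.45), ABRAXAS1 (−0.63) and ATR (−0.42). In total RNA 4 of these 26 genes lay above 0 and 22 below, beside 8575 above and 7647 below among all 16228 genes tested. H2AX itself had 1.13 there.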

How the data were processed

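The authors deposited raw counts per gene symbol as whole numbers, without normalization. Per the submitters' processing notes, reads were handled with HISAT2 2.1.0, Trimmomatic 0.36, bcl2fastq 2.19.0, featureCounts of Subread 2.0.1, R 4.1.2 and DESeq2 on GRCh38; annotation, strand setting and treatment of multiply matching reads are not given in the sources used here. Groups came from the sample labels. With R 4.3.3 and edgeR 4.0.16, filterByExpr (minimum count 10, minimum total 15, over 4 groups) kept 16228 genes, which were scaled by TMM (factors 1.37 to 1.45 in total and 0.653 to 0.751 in polysome libraries). All 8 libraries entered 1 robust quasi-likelihood fit with a mean per group and 4 residual degrees of freedom. Adjustment was by Benjamini-Hochberg over all tested genes, with a threshold of 0.05. SE is the log2 fold change over the root of its F statistic. CPM are counts scaled to 1000000 per TMM-scaled library, so polysomal levels are relative to other genes. DESeq2 1.42.0, other filters, a replicate block, fits of 2 groups and fits without each library were alternatives, and scaling by library totals was added after the data were seen. The fits were tested on simulated data. Transcript sequences came from GENCODE release 29. Members, lists and named genes (variants with a mean of at least 1 CPM, the 8 highest replication-type genes, every gene called, and the 3 smallest p-values of each list) were chosen with earlier results of these data known. The values of 1 variant are not reported here; it stayed in the fits, counts and medians.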

Additional observations from a re-analysis of the deposited data

How the results depend on the processing

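In total RNA the number of histone genes called between knockdown and scramble, 0 as reported, was 1 under DESeq2, with no filter on low counts, with a minimum count of 30 and with only the 2 groups fitted, each time H2AX. In polysomal RNA, also 0 as reported, it was 1 under DESeq2 (H2AX, higher) and 1 with no filter (H1-10, lower). Polysomal over total RNA gave 16 calls by library totals in knockdown cells, against 31 as reported, and 16 in scramble cells, against 34 as reported. Leaving out 1 library gave 21 to 31 calls in knockdown and 19 to 39 in scramble cells, and 0 in each knockdown comparison. These fits assume that the single library left in a group varies like the others. Deviations of same-numbered libraries correlated between −0.0921 and 0.0264, which showed no pairing by replicate number. With 2 libraries a group, noise can hide a shared culture, so this check cannot exclude pairing. With the replicate block the calls over all genes were 0 in total RNA, 3 in polysomal RNA (2 without it) and 0 in the ratio. Between fractions they were 9774 in knockdown cells (10230 without it) and 9932 in scramble cells (10293 without it). The histone calls with the block were, in the same order, 0, 0, 0, 29 and 32. Log2 fold changes turned round mostly where they were near 0. By library totals they were −0.0199 for H2AC6 in total RNA, −0.0877 for MACROH2A2 and −0.0565 for H2BC5 in polysomal RNA and −0.0329 for H3-3A in the ratio. Between fractions, library totals gave −0.57 for H1-10, −0.18 for H2AX, −0.0096 for MACROH2A1, −0.061 for H2AC6 and −0.29 for H2AC11 in knockdown cells, and −0.12 for H2AC6 in scramble cells. With no filter, MACROH2A2 had −0.0471 and H2BC5 −0.0043 in polysomal RNA, and H3-3A −0.00773 in the ratio. MACROH2A2 had −0.0131 in polysomal RNA and 0.0068 between fractions in scramble cells with the replicate block, and in that last comparison 0.0547 with a minimum count of 30 and 0.0184 with only the 2 groups fitted. Leaving out 1 library spanned 0 in total RNA for H1-10 (−0.0309 to 0.15), H1-2 (−0.12 to 0.37), H2AC6 (−0.12 to 0.15), H2AJ (−0.0451 to 0.47), H3-3B (−0.0892 to 0.28) and MACROH2A2 (−0.0269 to 0.41). In polysomal RNA it did so for H2AC6 (−0.0545 to 0.26), H2AZ1 (−0.0724 to 0.41), H2BC5 (−0.23 to 0.20), MACROH2A1 (−0.22 to 0.0180) and MACROH2A2 (−0.20 to 0.0882). In the ratio it did so for H2AC20 (−0.64 to 0.29), H2AC6 (−0.0564 to 0.26), H2AZ1 (−0.43 to 0.0448), H2BC11 (−0.0895 to 0.80), H2BC5 (−0.36 to 0.0671), H3-3A (−0.11 to 0.12), H3-3B (−0.31 to 0.0637) and MACROH2A2 (−0.40 to 0.0273). Between fractions it did so for H1-10 (−0.0201 to 0.76) and MACROH2A2 (−0.44 to 0.0270) in knockdown cells and for MACROH2A2 (−0.16 to 0.0381) in scramble cells. Why these values moved was not tested. Genes under 1 CPM rest on few counts in 2 libraries a group, so their folds are imprecise.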

Other observations

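A few sparse replication-type genes had uneven counts, given here as values that were chosen after they were seen. H2AC14, an H2A gene that shares 83.7% of its 50-base windows with H2AC13, had 4 and 11 counts in polysomal RNA of knockdown cells, against 30 and 32 with scramble shRNA, and 20 and 18 counts in total RNA of knockdown cells, against 7 and 12 with scramble shRNA. H2AC16 had 4 and 5 counts in polysomal RNA of knockdown cells, against 11 and 16 with scramble shRNA, and 19 and 19 counts in total RNA of knockdown cells, against 3 and 8 with scramble shRNA. In both genes the knockdown libraries were lower in polysomal and higher in total RNA, with log2 changes of the ratio of −2.41 ± 1.07 for H2AC14 and −2.76 ± 1.20 for H2AC16, neither of which passed edgeR's test (adjusted p = 0.776 each).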
